A study of Mus musculus with 4 samples.

Results

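Nuclei were taken from single-nucleus RNA sequencing of adult mouse hippocampus by their transcripts of 5 marker genes. Among these are the prolactin receptor gene Prlr, the histamine receptor gene Hrh3 and the metalloprotease gene Adam12. No nucleus had to carry all of them. A nucleus was a member when its barcode held at least 5000 unique molecular identifiers (UMIs, each marking 1 RNA molecule) and at least 3 of the 5 marker genes Prlr, Hrh3, Adam12, Nrg1 and Spata6 with at least 2 UMIs each. It also needed at least 1 UMI of Slc17a7, the vesicular glutamate transporter of excitatory neurons. Nuclei with more than 2 UMIs of Tshz2, more than 1 of Prox1 (a dentate granule cell factor) or more than 1 of Gad1 and Gad2 together (the enzymes that make GABA) were left out. The rule gave 609 member nuclei among 32572 barcodes with at least 5000 UMIs. Of the members, 116 and 153 came from the 2 Control libraries and 203 and 137 from the 2 Kat6a-cKO libraries. Members were thus chosen by their own counts of the 5 markers, so the levels of these genes are a description and were not tested.

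The Control mice carried Kat6a-f/f, an allele of Kat6a that Cre recombinase can delete in part. The Kat6a-cKO mice carried NEX-cre together with Kat6a-f/f, so both groups shared the floxed allele and the groups differed by the presence of Cre. NEX-cre drives Cre from Neurod6, which forebrain excitatory neurons express, and deletion is therefore not limited to any 1 hippocampal field. Per its title, the study concerned KAT6A, cognition and RSPO2/Wnt signalling in CA3. The labels do not say whether the 2 libraries of a group came from separate animals, and p-values measure only the spread between these libraries, which may be technical.

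Prolactin acts through its receptor on the kinase JAK2, which activates STAT5, and SOCS proteins dampen the signal. The histamine H3 receptor is a presynaptic receptor coupled to inhibitory G proteins and limits the release of histamine and other transmitters. Neuregulin 1 is a ligand of ErbB receptors, chiefly ERBB4 in brain, and is released from its membrane-bound precursor by proteases. ADAM12 belongs to the same family as several of those proteases. KAT6A is a histone acetyltransferase that works in a complex with BRPF and ING proteins.

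The 4 libraries held between 171323466 and 186897245 counts, and between 7911 and 8442 barcodes reached 5000 UMIs. Between 15 and 20 barcodes were shared by any pair of libraries, and 1 member had a barcode that also occurred in another library. Scrublet called 22 of the 609 members doublets, and these were kept. Members had a median of 20800 UMIs, against 17223 in the 15243 other excitatory barcodes, which met the same conditions on Slc17a7, Prox1, Gad1 and Gad2. The member with the fewest UMIs had 9097, well above the minimum.

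Nrg1 and Adam12 were reached by nearly all members and the other 3 markers by fewer. Nrg1 had at least 2 UMIs in 99.8% of members, Adam12 in 94.7%, Prlr in 60.1%, Hrh3 in 31.5% and Spata6 in 31.4%. The commonest combination was Prlr, Adam12 and Nrg1, in 274 members. Hrh3, Adam12 and Nrg1 came together in 103 members, and Adam12, Nrg1 and Spata6 in 101 members. With Nrg1 and Adam12 reached so often, 1 further marker was mostly enough to enter. Only 8 members reached all 5 markers, 91 reached 4 and 510 reached exactly 3.

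Levels of the markers are given as CPM, a gene's counts in the members of a library scaled to the total counts of those members. Control members had 91.6 and 108 CPM of Prlr and Kat6a-cKO members 119 and 133 CPM, against a mean of 9.47 CPM in other excitatory barcodes. For Hrh3, Control members had 37.5 and 35.9 CPM and Kat6a-cKO members 60.7 and 42.5 CPM, against 5.31 CPM. For Adam12, Control members had 203 and 234 CPM and Kat6a-cKO members 270 and 217 CPM, against 50.3 CPM. Both Kat6a-cKO libraries were above both Control libraries for Prlr, Hrh3 and Nrg1. This order is a description only, because these genes chose the members, and it was not tested. The groups overlapped for Adam12 and Spata6. Other excitatory barcodes had the same order, with 6.63 and 8.83 against 12.5 and 9.95 CPM of Prlr. For Hrh3 they had 4.07 and 4.45 against 6.94 and 5.77 CPM, and for Nrg1 740 and 730 against 1009 and 882 CPM. Nrg1 reached 2113 and 2366 CPM in Control members, and Kat6a-cKO members had 3486 and 2960 CPM, against 840 CPM. Spata6, named for spermatogenesis, reached 37.8 and 47.5 CPM in Control members, and Kat6a-cKO members had 47.2 and 44.9 CPM, against 4.18 CPM. In each library the members stood above the other excitatory barcodes for all 5, as the rule required.

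Just inside the threshold, the 510 members with exactly 3 markers had on average 2.44 UMIs of Prlr, 0.769 of Hrh3, 4.85 of Adam12, 56.7 of Nrg1 and 0.782 of Spata6. Just outside it, 3200 excitatory nuclei with exactly 2 markers and the same limit on Tshz2 had 0.573, 0.143, 2.98, 26.0 and 0.150 UMIs of these genes. Their median depth was 19071 UMIs, against 20112.5 in the members with 3 markers. Depth also set who entered: members were 0.142% of excitatory barcodes with 5000 to 10000 UMIs and 5.39% of those with 30000 or more. When each barcode was thinned to 5000 UMIs, the rule was still met by 4 and 6 Control nuclei and by 8 and 6 Kat6a-cKO nuclei. Nuclei of clusters with CA3 pyramidal markers, with a median of 24260 UMIs, reached 2 UMIs of Prlr in 4.76% of cases and of Hrh3 in 0.143%. Oligodendrocyte-like nuclei, with a median of 6013 UMIs, reached 2 UMIs of Adam12 in 13.5% of cases and of Hrh3 in 0.260%.

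**Figure D1:**
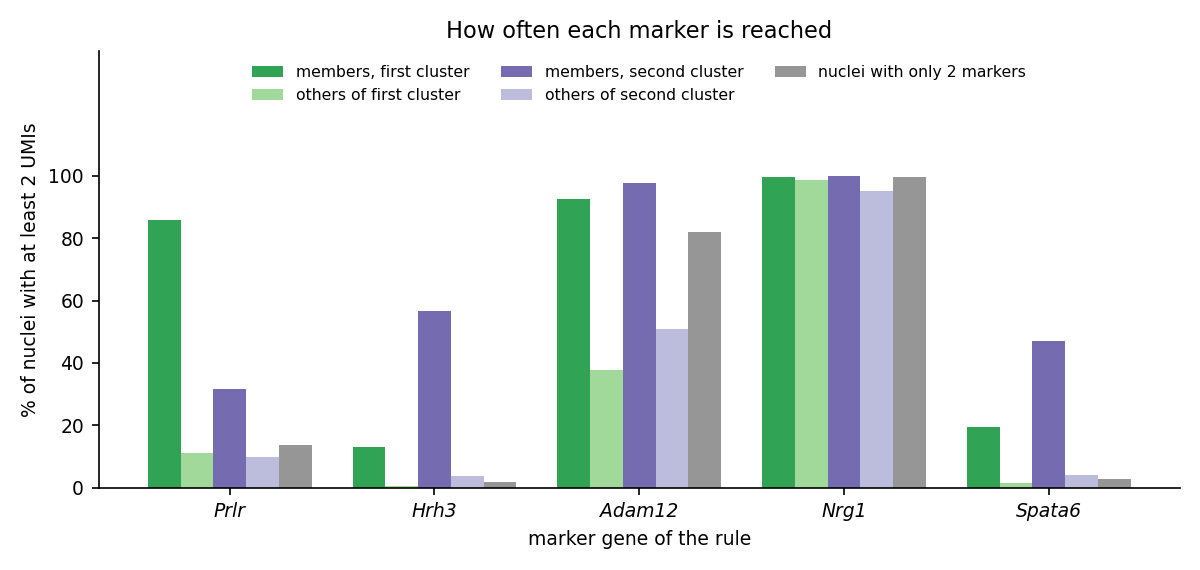
Percent of nuclei with at least 2 UMIs of each marker gene (vertical axis), by gene (horizontal axis), for members and other nuclei of the first and the second cluster and for nuclei with only 2 markers. Prlr was reached by 85.7% of members in the first cluster and 31.7% in the second, and Hrh3 by 13.2% and 56.7%.

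The members did not form a cluster of their own. When all barcodes were clustered without the 10 genes of the rule, 266 members (43.7%) fell into a cluster of 2459 nuclei, called the first cluster here, and 208 (34.2%) into a cluster of 626 nuclei, called the second. The first was CA1 pyramidal-like, with 6 of 8 CA1 markers raised. The second had 4 of 8 raised, but its 10 leading genes held Adam12 and Hrh3 and none of the CA1 markers, so it is given no cell type name here. Its other nuclei are counted among the CA1-like nuclei in the comparisons below. The other 135 members were spread over 16 clusters, of which 2 further CA1-like clusters held 49 and 17. Clusters led by oligodendrocyte, microglial and astrocyte genes held 13, 5 and 1 of them, and 2 clusters made up mostly of called doublets held 13 and 5. Over 5 random seeds of the clustering, the first cluster held 2396 to 3088 nuclei and 241 to 270 members, and the second 599 to 626 nuclei and 206 to 208 members. Prlr was among the 10 leading genes of the first cluster. Nuclei of the second cluster that were not members averaged 21.9 CPM of Prlr, 14.6 of Hrh3, 137 of Adam12, 1853 of Nrg1 and 11.1 of Spata6. Each of these was above the mean of the other excitatory barcodes. Since the members fell mainly into 2 clusters, they are described as nuclei that met the rule and not as 1 cell type.

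The 2 clusters reached the rule by different markers. In the first cluster, 181 of 266 members (68.0%) entered through Prlr, Adam12 and Nrg1. In the second, 63 of 208 (30.3%) entered through Hrh3, Adam12 and Nrg1 and a further 34 (16.3%) through those 3 with Spata6. Mean Prlr was 208 ± 43.9 CPM in first-cluster members and 53.0 ± 12 CPM in second-cluster members (SD, n = 4 libraries of both genotypes). Hrh3 went the other way, with 25.1 ± 12.7 CPM and 73.8 ± 5.17 CPM, and so did Adam12, with 177 ± 27.2 CPM and 346 ± 32.1 CPM. These markers chose the members, so the size of these differences depends on the rule and was not tested. In nuclei of the first and second clusters that were not members, Prlr averaged 34.9 and 21.9 CPM. Hrh3 averaged 6.86 and 14.6 CPM there, and Adam12 95.3 and 137 CPM. First-cluster members had a median of 16864.5 UMIs and second-cluster members 24654.5.

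The mix differed between libraries. First-cluster nuclei made up 43.1% and 47.1% of Control members, and 33.0% and 56.2% of Kat6a-cKO members. For second-cluster nuclei the Control shares were 27.6% and 27.5%, and the Kat6a-cKO shares 46.3% and 29.2%. Kat6a-cKO replicate 1 thus stood apart, with 94 of its 203 members in the second cluster. Members outside both clusters made up 29.3% and 25.5% in the Control libraries, against 20.7% and 14.6%, so for them both Kat6a-cKO shares were under both Control shares. The genotype results below are for all members, with values within a cluster for several genes.

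**Figure D2:**
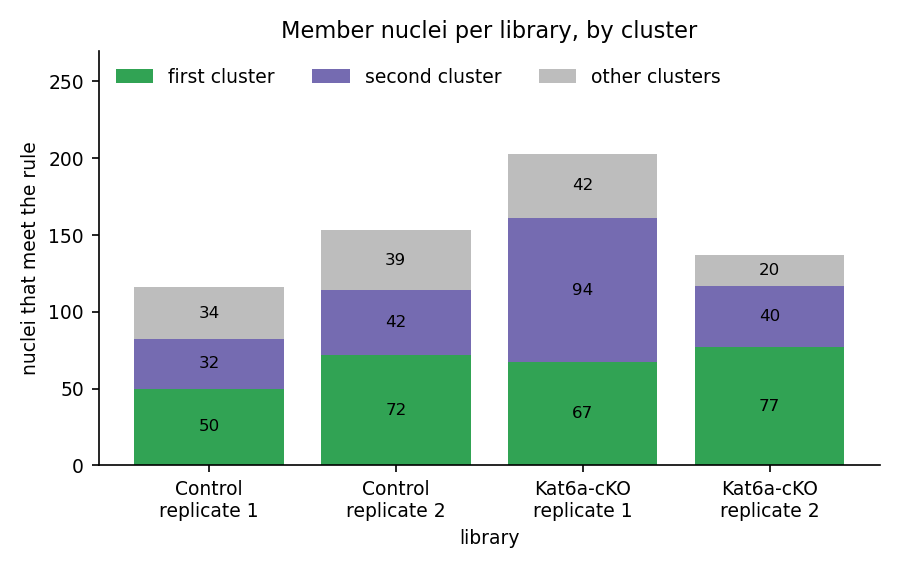
Number of member nuclei (vertical axis) in each of the 4 libraries (horizontal axis), stacked by cluster. Kat6a-cKO replicate 1 had 94 members in the second cluster, and the other libraries had 32, 42 and 40.

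Compared with the other excitatory barcodes, members had higher levels of a set of genes that the rule did not use. These genes can follow the rule's markers from nucleus to nucleus, and the comparison has no test. Gm12128 led: Control members had 44.9 and 48.4 CPM and Kat6a-cKO members 77.0 and 38.8 CPM, against a mean of 1.57 CPM in the others. B230110G15Rik averaged 135 ± 28.7 CPM against 28.8 ± 5.93 CPM (SD, n = 4 libraries). Fibcd1, a CA1 marker, averaged 54.7 ± 3.54 CPM against 16 ± 3.31 CPM. Bmpr1b, a receptor for bone morphogenetic proteins, averaged 74.9 ± 23.3 CPM against 21.4 ± 2.99 CPM. This did not hold in both clusters: Bmpr1b averaged 150 ± 44.1 CPM in second-cluster members and 4.26 ± 2.62 CPM in first-cluster members, under the others.

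Among the other leading genes, Tenm3, a teneurin that guides the matching of CA1 and subicular axons, averaged 2034 ± 380 CPM in members and 694 ± 23.3 CPM in the others. Tenm1, of the same family, averaged 551 ± 107 and 261 ± 33.2 CPM. Ntm, a neurotrimin of the immunoglobulin superfamily, averaged 2202 ± 165 and 997 ± 40.8 CPM. Itga8, an integrin subunit, averaged 444 ± 17.6 and 226 ± 7.89 CPM. Htr2a, the serotonin 2A receptor gene, averaged 82.9 ± 17.5 and 31.4 ± 7.57 CPM, and Tmem163, a zinc transporter gene, 58.4 ± 22.9 and 15.9 ± 5.00 CPM. The transcription factor genes Zfp462 and Runx2 averaged 424 ± 40.5 and 625 ± 25.7 CPM in members, against 198 ± 9.48 and 327 ± 15.6 CPM.

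Some of these genes were also high in CA1-like clusters. Over the 6185 CA1-like nuclei that were not members, Runx2 averaged 585 ± 18.8 CPM, Ntm 1922 ± 94.6 CPM and Fibcd1 38.4 ± 4.44 CPM. Galntl6, a glycosyltransferase gene, was 5565 ± 1137 CPM in members, 2767 ± 428 CPM in other excitatory barcodes and 6369 ± 750 CPM in the CA1-like nuclei.

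The genes lowest in members included markers of other hippocampal excitatory neurons. Cpne4, a copine gene high in CA3, averaged 76.4 ± 23.4 CPM in members and 534 ± 29.6 CPM in the others. The granule cell markers Stxbp6 and Glis3 averaged 16.7 ± 2.20 and 9.51 ± 5.25 CPM, against 137 ± 22.3 and 104 ± 13.1 CPM. Synpr, which codes for synaptoporin of mossy fibre terminals, averaged 22.8 ± 4.82 and 143 ± 16.6 CPM.

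First- and second-cluster members differed widely, as the clustering arranged, and these values carry no test. Dpp10, an auxiliary subunit gene of Kv4 potassium channels, was between 14 and 23.5 CPM in first-cluster members of the 4 libraries. Second-cluster members of the same gene had 1770 and 1355 CPM in the Control libraries, and those of the Kat6a-cKO libraries had 2323 and 2777 CPM. Lrrtm4, an organiser of excitatory synapses, averaged 69.5 ± 37.7 CPM in the first and 4201 ± 764 CPM in the second. Socs2, an inhibitor of prolactin and growth hormone signalling, averaged 2.80 ± 2.32 and 151 ± 14.5 CPM, and Kit, a receptor tyrosine kinase gene, 42.3 ± 20.1 and 357 ± 41.2 CPM. Second-cluster members also held more Efna5, an ephrin ligand, at 143 ± 20.6 CPM against 5.18 ± 2.32 CPM.

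Nell1, which codes for a secreted protein with EGF-like repeats, led in first-cluster members with 1324 ± 66.6 CPM, against 228 ± 69.0 CPM in the second. Tenm3 averaged 3960 ± 154 and 920 ± 125 CPM, and Kcnb2, a delayed-rectifier potassium channel gene, 895 ± 56.9 and 249 ± 39.7 CPM. The transcription factor gene Dach1 averaged 103 ± 23.1 and 10.5 ± 6.39 CPM, and Chrm3, the muscarinic M3 receptor gene, 1737 ± 81.6 and 586 ± 76.3 CPM. Epha7 and Epha3, ephrin receptor genes, were also higher in the first, at 646 ± 61.5 and 209 ± 44.9 CPM against 192 ± 40.3 and 44.1 ± 11.2 CPM. The ligand gene named above was higher in the second cluster and these receptor genes in the first.

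**Figure D3:**
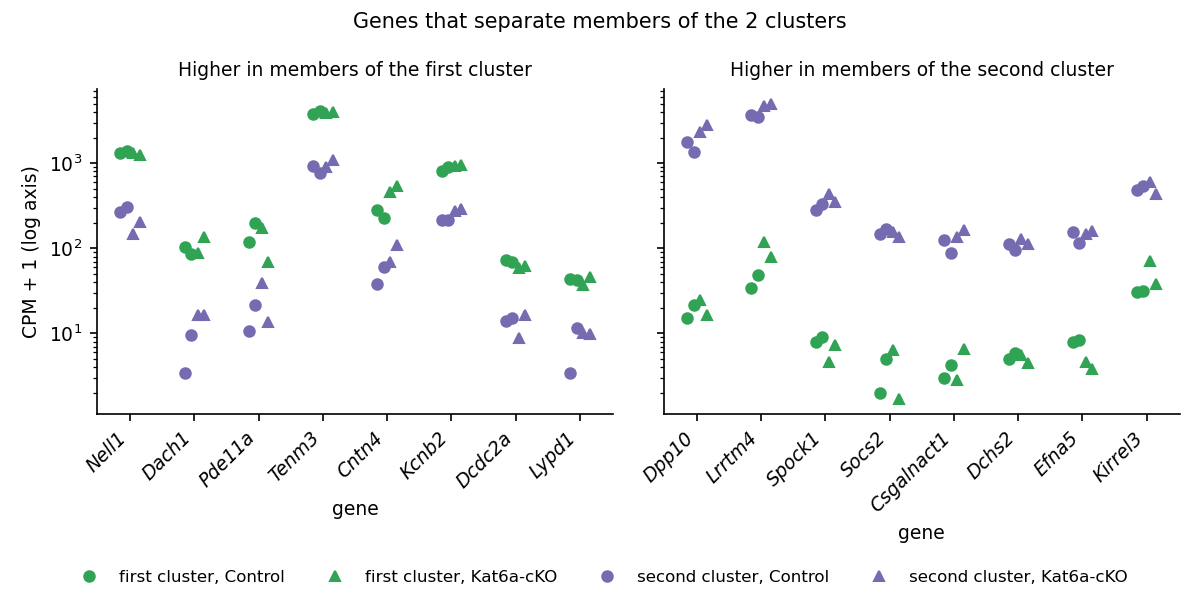
CPM + 1 on a log axis (vertical) of the 8 genes with the highest ratio in each direction (horizontal axis) between members of the first and second clusters, 1 point for each library and cluster, with genotype by symbol. The points of the 2 clusters did not overlap for any of these 16 genes, which were chosen for this difference.

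Marker lists of other cell types varied in how members compared with other excitatory barcodes. Summed over each list, the 8 CA1 markers had 1217 to 1523 CPM across the libraries, against 804 to 899 CPM in other excitatory barcodes, and 6 of the 8 were higher. The 8 dentate granule markers summed to 72.5 to 84.7 CPM, against 374 to 514 CPM. The 10 inhibitory neuron markers summed to 66.4 to 79.6 CPM, against 229 to 328 CPM, with Dlx1 at 0 counts. Oligodendrocyte markers summed to 88.8 to 165 CPM, against 192 to 271 CPM, astrocyte markers to 23.7 to 47.4 CPM, against 190 to 243 CPM, and microglial markers to 92.1 to 129 CPM, against 105 to 143 CPM. The ranges of the microglial sum overlapped between members and others, as did those of oligodendrocyte precursors, at 33.3 to 77.0 CPM against 53.3 to 77.3 CPM, and of ependymal cells. The 6 markers of layer 5 extratelencephalic neurons summed to more in members, 377 to 414 CPM against 302 to 322 CPM. Of the 6, 2 were above the others in every library. This sum was not particular to members, with 395 to 411 CPM in CA1-like nuclei outside them and 382 to 408 CPM in dentate granule-like nuclei.

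The 9 CA3 markers summed to 659 to 1009 CPM in members and 4320 to 4417 CPM in CA3-like clusters. The 6 deep layer 6 markers separated the 2 groups of members. They summed to 496 to 592 CPM in first-cluster members and 1027 to 1671 CPM in second-cluster members. Both ranges were below the 1753 to 2291 CPM of other excitatory barcodes, while CA3-like clusters had 4045 to 4813 CPM. In second-cluster members 1 of the 6 was above those barcodes in every library. That gene was Sulf1, a heparan sulfatase gene, with 34.0 ± 6.38 CPM in second-cluster members, 1.06 ± 1.25 CPM in first-cluster members and 6.23 CPM in other excitatory barcodes. Foxp2, the layer 6 transcription factor gene, had 4.23 CPM in first-cluster and 7.59 CPM in second-cluster members. Syt6 of the same list was at 0 counts in first-cluster members. The 8 CA1 markers summed to 1264 to 1428 CPM in first-cluster and 1170 to 1592 CPM in second-cluster members. In CA1-like nuclei outside the members they summed to 1442 to 1558 CPM.

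The first comparison was the share of members by genotype. Members made up 1.40% and 1.92% of Control barcodes, and 2.40% and 1.73% of Kat6a-cKO barcodes, with exact Clopper-Pearson 95% intervals of 1.16 to 1.68%, 1.63 to 2.25%, 2.09 to 2.75% and 1.46 to 2.04%. The groups overlapped, because Kat6a-cKO replicate 2 lay below Control replicate 2. The means were 1.66 ± 0.366% and 2.07 ± 0.476% (SD, n = 2 libraries), a difference of 0.405 percentage points (exact permutation test, two-sided, p = 0.667). The smallest p this design allows is 0.33. Leaving out Kat6a-cKO replicate 1 brought the difference to 0.0685 points, and leaving out Control replicate 1 to 0.146 points.

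Kat6a itself was measured in every library. On the scale of normalised CPM (trimmed mean of M values over the genes tested), which holds for all genotype values below, Kat6a was at 65.5 and 68.4 in Control members and Kat6a-cKO members had 68.0 and 66.9. The log2 fold change of Kat6a-cKO over Control was 0.01 ± 0.13 (SE), with adjusted p = 0.997 by edgeR's quasi-likelihood test with Benjamini-Hochberg adjustment. The labels do not name the deleted exon, and counts over the whole gene in nuclear RNA can lie outside the deleted part, so this value checks nothing about the deletion. The change was -0.05 ± 0.18 in first-cluster and 0.08 ± 0.19 in second-cluster members. The Cre entry in the files was at 0 in both Control libraries' members and at 6 counts in those of each Kat6a-cKO library, matching the labels in all 4 libraries.

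Members showed few tested differences between genotypes. Of 11085 genes tested in members, leaving out the rule's genes, 2 passed an adjusted p of 0.05 (0.018%), both higher in Kat6a-cKO, and 0 were lower (0.0%) by the same edgeR test. At an unadjusted p under 0.05 there were 563 genes (5.08%), 290 higher (2.62%) and 273 lower (2.46%). DESeq2 called 5. Single libraries moved the count: without Control replicate 1 or Control replicate 2 no gene passed, and without Kat6a-cKO replicate 1 or replicate 2 there were 41 and 214.

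Gm3279 rose most. This lincRNA spans 55684571 to 55694574 of chromosome 6 (GRCm38) and starts 3.31 kb from Neurod6, the gene that carries NEX-cre. It had 1.83 and 1.49 normalised CPM in Control members and 39.6 and 33.1 in Kat6a-cKO members, from 5 and 5 counts against 176 and 97. The libraries of the 2 groups were far apart, with a log2 fold change of 4.45 ± 0.30 and adjusted p = 0.000232 (edgeR). Without Control replicate 1 or 2 the adjusted p of Gm3279 in members was 0.0587 or 0.0950 at changes of 4.59 and 4.29, and with at least 4 markers it was 0.313 at a change of 3.25. In CA1-like nuclei outside the members the same gene rose by 4.86 ± 0.13 on the log2 scale.

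Neurod6, a neuronal basic helix-loop-helix factor gene, lay at 55677822 to 55681263 on the same chromosome. Control members had 39.9 and 42.5 normalised CPM and Kat6a-cKO members 25.2 and 22.5, both lower. The log2 fold change was -0.78 ± 0.17 with adjusted p = 0.577 (edgeR), so it did not pass. Within the clusters it was -0.63 ± 0.25 and -0.82 ± 0.30. The lincRNA 6430584L05Rik, also on this chromosome, had 3 and 4 counts in Control members, with 15 and 4 in Kat6a-cKO members, and was too low to be tested.

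Pcdh11x was the other gene that passed. It codes for a protocadherin, a homophilic adhesion protein, on chromosome X at 120290259 to 120910619, where 4 other annotated genes overlap it. It had 22.7 and 22 normalised CPM in Control members and 62.3 and 54.3 in Kat6a-cKO members, with a log2 fold change of 1.39 ± 0.17 and adjusted p = 0.0275 (edgeR). In second-cluster members it had 10.0 and 21.9 against 70.8 and 55.0, a rise of 1.95 ± 0.30 with adjusted p = 0.0146. In first-cluster members it had 19.7 and 12.1 against 32.7 and 31, a change of 1.03 ± 0.31 that did not pass (adjusted p = 0.636). The adjusted p of Pcdh11x in members was 0.492 without Control replicate 1, 0.810 without Control replicate 2 and 0.0887 after subtraction of free RNA, at changes of 1.41, 1.37 and 1.48. It was 0.998 with at least 4 markers, where its change was 0.21. Pcdh11x also rose in the CA1-like nuclei outside the members, by 0.97 ± 0.11 with adjusted p = 0.0316.

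**Figure D4:**
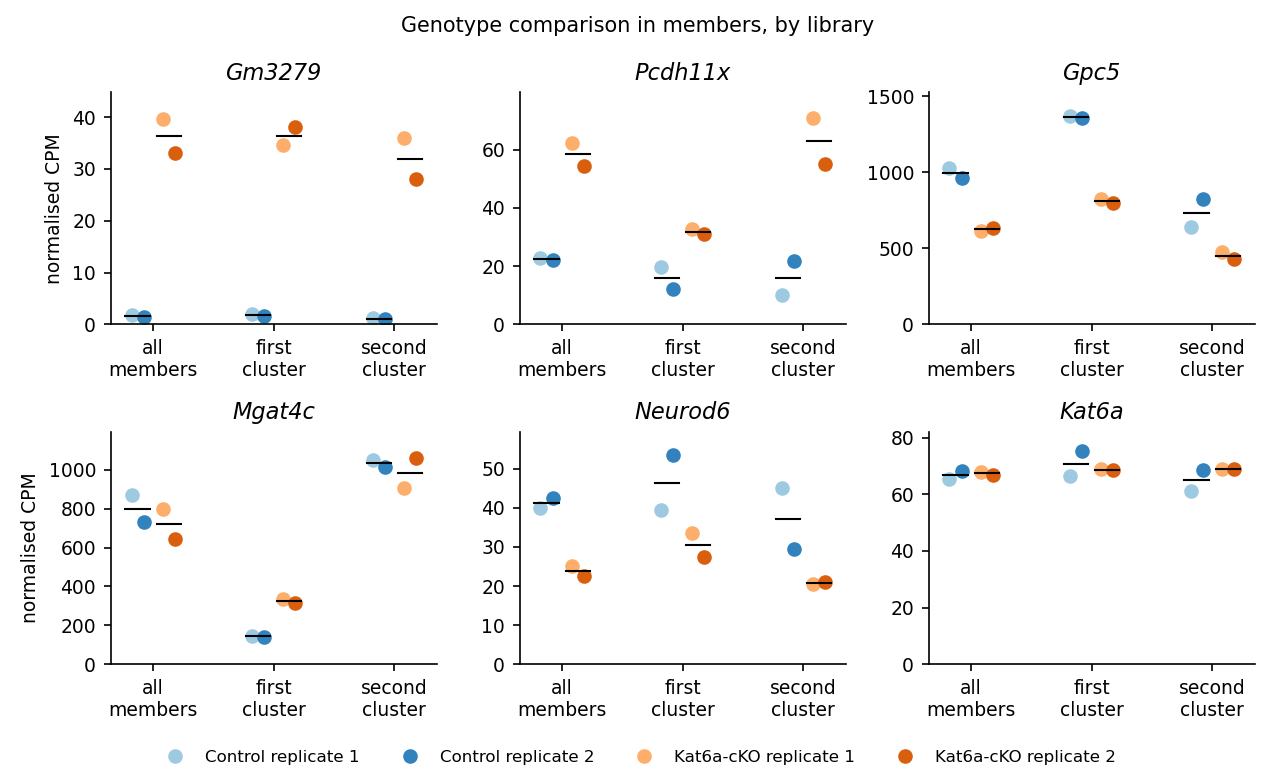
Normalised CPM (vertical axis) of Gm3279, Pcdh11x, Gpc5, Mgat4c, Neurod6 and Kat6a in all members and in members of the first and second clusters (horizontal axis), 1 point for each library and a bar at each group's mean. Gm3279 was above 27 in every Kat6a-cKO point and below 3 in every Control point, while Kat6a overlapped in all members.

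Among the genes of lowest p that did not pass, Tmem163 had 38.1 and 40.4 normalised CPM in Control members, against 85.3 and 71.7 in Kat6a-cKO members, a log2 fold change of 1.00 ± 0.15 (edgeR adjusted p = 0.148). Within the first cluster its change was 0.53 ± 0.38 and within the second 0.60 ± 0.16. Sgcz, a sarcoglycan gene, had 327 and 292 against 653 and 462, a change of 0.85 ± 0.16 in all members, 0.37 ± 0.22 in the first cluster and 0.61 ± 0.13 in the second. DESeq2 called Sgcz in all members. Both genes were higher in second-cluster than in first-cluster members, and the library with most second-cluster members had the highest value of each. The part of the mix in these values was not tested beyond the within-cluster changes. The lincRNA Gm6999 changed by 1.60 ± 0.31, with adjusted p = 0.474 like Sgcz.

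Of genes lower in Kat6a-cKO, Gpc5 had the lowest p. It codes for a glypican, a heparan sulfate proteoglycan, on chromosome 14. It had 1029 and 964 normalised CPM in Control members and 616 and 635 in Kat6a-cKO members, a log2 fold change of -0.67 ± 0.11 with adjusted p = 0.265 (edgeR), and DESeq2 called it. In first-cluster members it fell by 0.75 ± 0.10 on the log2 scale, from 1366 and 1356 to 825 and 796, with adjusted p = 0.00329. In second-cluster members it had 637 and 824 against 476 and 427, a change of -0.69 ± 0.13 with adjusted p = 0.0591. Gpc5 was lower in the CA1-like nuclei outside the members too, with a log2 fold change of -0.52 ± 0.07 and adjusted p = 0.0452. Bmpr1b changed by -0.75 ± 0.15 in all members (adjusted p = 0.509), and by -0.65 ± 0.19 in the second cluster. The lincRNAs Gm40418 and Gm29771 and the cytochrome oxidase subunit gene Cox7a2 had changes of -3.26 ± 0.61, -3.55 ± 0.73 and -0.73 ± 0.16, none of which passed. Both lincRNAs rest on few counts: 20 and 22 against 1 and 4 for Gm40418, and 17 and 14 against 3 and 0 for Gm29771.

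Within the first cluster, 5 of 8402 genes passed (0.0595%), 4 higher (0.0476%) and 1 lower (0.0119%), and 519 (6.18%) had an unadjusted p under 0.05. Besides Gm3279 and Gpc5, these were Mgat4c, Cntn4 and Zfpm2, all higher in Kat6a-cKO. Mgat4c, a glycosyltransferase gene, had 145 and 142 normalised CPM in Control, against 335 and 315, a rise of 1.18 ± 0.13 with adjusted p = 0.000609 (edgeR). Cntn4, a contactin of the immunoglobulin superfamily involved in axon targeting, had 291 and 224 against 469 and 547, a rise of 0.99 ± 0.14 with adjusted p = 0.00602. Zfpm2, a cofactor of GATA factors, had 106 and 119 against 223 and 193, a rise of 0.88 ± 0.15 with adjusted p = 0.0465. In second-cluster members Mgat4c had 1049 and 1017 against 905 and 1061, a change of -0.07 ± 0.12. Cntn4 changed by 0.80 ± 0.25 in second-cluster members, which did not pass. In all members it changed by 0.82 ± 0.16, called by DESeq2 and not by edgeR.

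Within the second cluster, 5 of 8057 genes passed (0.0621%), each of them higher in Kat6a-cKO. At an unadjusted p under 0.05 there were 460 (5.71%). Besides Gm3279 and Pcdh11x, the genes past the adjusted threshold included Gabrg3 and Trpm3. Gabrg3, a GABA-A receptor subunit gene, had 340 and 413 normalised CPM in Control, against 672 and 617, a rise of 0.77 ± 0.13. Trpm3, a cation channel gene, had 259 and 241 against 423 and 427, a rise of 0.77 ± 0.13. Both had adjusted p = 0.0205 by edgeR's quasi-likelihood test, and 6 annotated genes overlap Gabrg3. In first-cluster members the changes of Gabrg3 and Trpm3 were 0.25 ± 0.12 and 0.77 ± 0.31, neither of which passed. Differences between the clusters in these changes were not tested.

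Genes of the prolactin receptor pathway did not pass the test in members. Of 22 listed, 13 were tested, 9 were higher in Kat6a-cKO and the median log2 fold change was 0.06, against 5460 of 11085 (49.3%) and a median of -0.0037 over all genes tested. Jak2, the receptor's kinase, had 65.1 and 59.2 normalised CPM in Control members, against 46.1 and 52.9, a change of -0.33 ± 0.15. Its relative Jak1 had 118 and 124 against 124 and 104. The 7 inhibitors tested, SOCS proteins and phosphatases, lay between 0.03 and 0.23. Socs2 among them had 66.6 and 77.0 against 96.3 and 54.6 and overlapped. Stat5b, a transcription factor of the pathway, had 4.39 and 1.78 against 5.85 and 5.46, both higher, a change of 0.92 ± 0.47. Il6st, the shared receptor subunit of the interleukin 6 family, changed by 0.51 ± 0.24.

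Histamine and neuregulin partners of the markers were likewise not called in all members. Hrh1, another histamine receptor gene, averaged 0.883 plain CPM in members and was too low to be tested. Hrh2 had 4.39 and 2.97 normalised CPM in Control members, against 3.60 and 1.71, a change of -0.37 ± 0.50. The G protein subunit gene Gnai1 had 166 and 149 against 141 and 143, a change of -0.15 ± 0.12. Nrg3, a further neuregulin gene, had 7509 and 7143 against 8387 and 7512, a change of 0.12 ± 0.13. Erbb4, the neuregulin receptor and an inhibitory neuron marker, had 22 and 36.0 against 27.7 and 22.5 and overlapped. It was called, lower in Kat6a-cKO, when at least 4 markers were required. That left 14 and 26 Control nuclei and 36 and 23 Kat6a-cKO nuclei, and the source of these Erbb4 counts was not tested. Bace1, a protease that processes neuregulin 1, had 22.7 and 26.2 against 16.7 and 18.8, a change of -0.48 ± 0.20.

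Of the ADAM family genes none passed. The 9 tested of 10 had a median log2 fold change of 0.07 and ranged from -0.07 to 0.29. Adam22 and Adam23, catalytically inactive receptors of LGI proteins at synapses, had 544 and 538 against 544 and 536 normalised CPM and 304 and 291 against 307 and 296. Adam10, a sheddase, changed by 0.11 ± 0.12, and Adam19 by 0.28 ± 0.18.

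The R-spondin and Wnt genes named by the study's question did not pass in members. R-spondins bind LGR receptors and strengthen Wnt signalling. Rspo2 had 30.0 and 33.9 normalised CPM in Control members, against 42.1 and 21.9, and the groups overlapped, with a log2 fold change of 0.03 ± 0.26 and adjusted p = 0.997 (edgeR). The change of Rspo2 in members was -0.55 with Kat6a-cKO replicate 1 left out and 0.39 with replicate 2 of that group left out. Rspo3 had 18.3 and 22.3 against 35.6 and 26.3, a change of 0.62 ± 0.21 (edgeR adjusted p = 0.891). Its change was 0.19 ± 0.29 in first-cluster and 0.46 ± 0.32 in second-cluster members. The R-spondin receptor gene Lgr5 had 6.22 and 6.24 against 12.6 and 9.22, a change of 0.83 ± 0.32. Over the list, 15 of 25 tested genes were higher and the median was 0.02. The KAT6A paralog gene Kat6b changed by 0.19 ± 0.12 and the related acetyltransferase gene Kat7 by 0.26 ± 0.18.

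Receptor and channel lists had medians near 0. The 22 glutamate receptor genes tested had a median of -0.0020, and 11 were higher. Of them, Grm3, a metabotropic receptor gene, changed by 0.43 ± 0.16. The 13 GABA receptor genes had a median of -0.05, and Gabra2 changed by -0.28 ± 0.11. The 23 potassium and HCN channel genes had a median of 0.02, with Kcnip4 at -0.27 ± 0.15 and Kcnd2 at -0.23 ± 0.15. The groups overlapped for both. Kcnip4 changed by -0.03 ± 0.09 in first-cluster and -0.20 ± 0.12 in second-cluster members. The 33 axon guidance genes had a median of -0.03, with Nrp1, a semaphorin receptor gene, at -0.30 ± 0.12 and Efna5, an ephrin gene, at 0.70 ± 0.29. Efna5 had 67.0 and 42.5 normalised CPM in Control members, against 115 and 58.4, and the groups overlapped. Its change in second-cluster members was 0.17 ± 0.17. None of these genes passed in all members.

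No amine or acetylcholine receptor gene passed in all members. Htr2a had 69.9 and 67.5 normalised CPM in Control members, against 105 and 92.2, a change of 0.53 ± 0.13 with adjusted p = 0.766 (edgeR). It changed by 0.62 ± 0.23 in the first cluster and 0.29 ± 0.15 in the second. Htr2a also rose in the CA1-like nuclei outside the members, by 0.74 ± 0.08 with adjusted p = 0.0259 (edgeR). It was called in the whole first cluster too. Htr7, another serotonin receptor gene, had 3.29 and 4.76 against 15.1 and 7.17, a change of 1.49 ± 0.43. Over the list, 8 of 15 were higher (49.3% over all genes tested), 4 had an unadjusted p under 0.05 (5.08% over all) and the median was 0.16. Of the neuropeptide and receptor genes, 4 of 13 were higher, a median of -0.22.

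Of the excitatory identity factors, 18 of 31 were higher and the median was 0.05. Nr4a2, an orphan nuclear receptor gene, had 12.4 and 14.6 normalised CPM against 21.6 and 23.9, a change of 0.74 ± 0.22. Mef2c, a factor that restrains synapse number, had 80.9 and 57.7 against 49.3 and 43.0, a change of -0.57 ± 0.18. Its change was -1.02 ± 0.21 in the first cluster and 0.02 ± 0.22 in the second, and the difference between the clusters was not tested.

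Immediate early genes and short cytoplasmic transcripts had medians of 0.60 and -0.60. Of 13 immediate early genes tested, 10 were higher in Kat6a-cKO (49.3% over all genes tested), 9 had both Kat6a-cKO libraries above both Control libraries, where 16.3% of all tested genes did. Junb had 13.2 and 16.1 normalised CPM in Control members, against 24.1 and 21.9, a change of 0.65 ± 0.21. Arc, whose product acts at synapses after activity, had 4.02 and 6.24 against 8.33 and 13, a change of 0.99 ± 0.37. None of the 13 passed the adjusted threshold (0 by edgeR, and 6 at an unadjusted p under 0.05 and higher, against 2.62% over all). In the first cluster 7 of 10 were higher (49.5% over all genes tested there) with a median of 0.34. In the second 4 of 4 were higher (49.6% over all) with a median of 0.59. The rise was not particular to members: in CA1-like nuclei outside them 15 of 18 were higher, with a median of 0.42. Over all genes tested there, 8211 of 16542 were higher. In CA3-like nuclei 9 of 17 were higher (7480 of 15335 over all), with a median of 0.02.

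All 13 short abundant cytoplasmic transcripts were lower in Kat6a-cKO members, and 0 passed by edgeR while 10 had an unadjusted p under 0.05, where 2.46% of all tested genes were lower at that p. Of the 21 tested genes of the RNA quality list, 13 had both Kat6a-cKO values under both Control values, where 17.0% of all tested genes did. That list also holds mitochondrial transcripts. Rplp1, a ribosomal protein gene, had 66.2 and 70.2 normalised CPM in Control members, against 44.8 and 45.4, a change of -0.60 ± 0.14. Fth1, the ferritin heavy chain gene, had 116 and 174 against 74.7 and 95, a change of -0.79 ± 0.19. The whole list had medians of -0.52 and -0.49 in first- and second-cluster members and -0.45 in CA1-like nuclei. The part of these transcripts in other results was not tested.

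**Figure D5:**
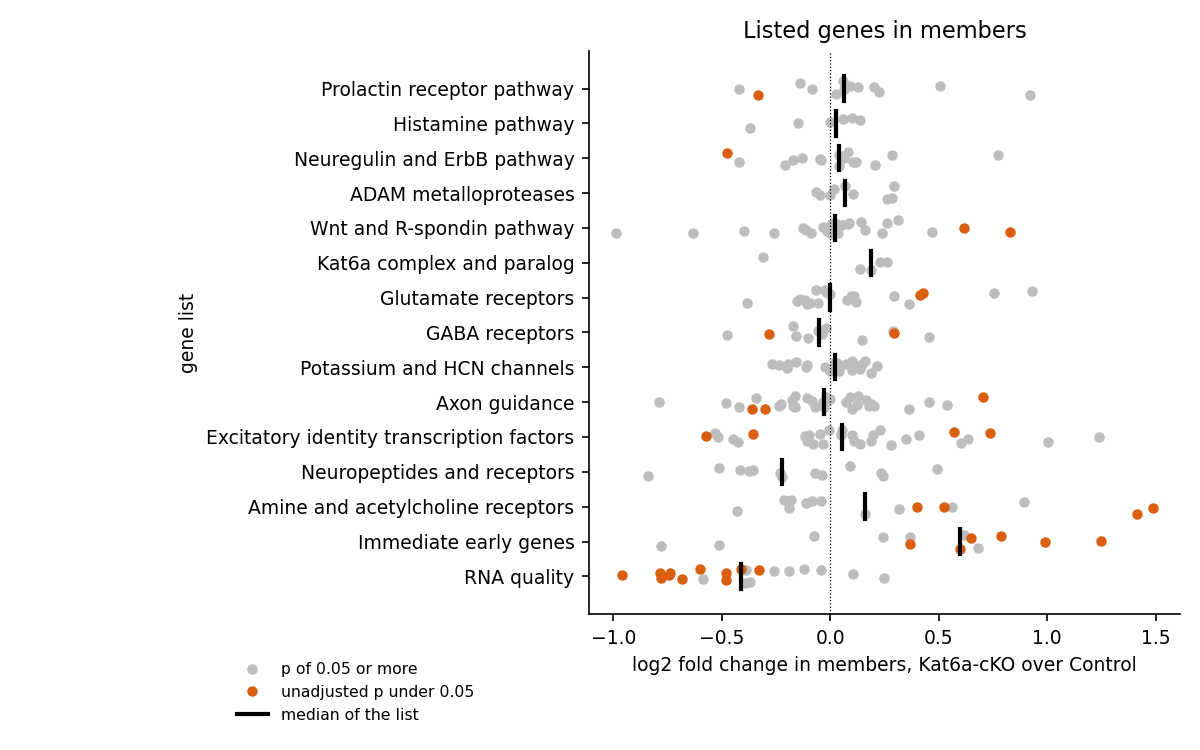
Log2 fold change of Kat6a-cKO over Control in all members (horizontal axis) for each tested gene of 15 lists (vertical axis), with the median of each list as a bar and genes of unadjusted p under 0.05 coloured. The medians lay between -0.22 and 0.19 except for immediate early genes at 0.60 and the RNA quality list at -0.41.

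The next comparison asked whether the genotype difference in members differed from that in CA3, the field named by the study. Members were set against 2797 nuclei of CA3-like clusters. In edgeR's quasi-likelihood interaction test, with the library as a block, 0 of 14936 genes passed (0.0%), which does not show equal changes. At an unadjusted p under 0.05 there were 649 (4.35%), and DESeq2 called 0. With Control replicate 1 or 2 left out the count was 0 or 8, and with Kat6a-cKO replicate 1 or 2 left out it was 46 or 78. First-cluster members alone gave 27 genes and second-cluster members alone gave 38. Gpc5 was among the genes of both. It changed by 0.24 ± 0.18 in CA3-like nuclei and by -0.67 ± 0.11 in all members. Gm3279 rose by 4.75 in CA3-like nuclei on the log2 scale and by 4.45 in members.

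Against the 6185 other CA1-like nuclei, 4 of 15354 genes passed (0.0261%), each with a lower log2 fold change in members and 0 with a higher one (0.0%), while 689 (4.49%) had an unadjusted p under 0.05. DESeq2 called the same 4. They were Cpne4, Mgat4c, Dpp10 and Mkx. First-cluster members alone gave 5 genes, 4 higher and 1 lower, and second-cluster members alone gave 28, 14 higher and 14 lower. Cpne4 had 79.7 and 98.4 normalised CPM in Control members and 76.7 and 45.7 in Kat6a-cKO members, and 12 and 14.7 against 24.7 and 20.4 in CA1-like nuclei, a difference between the changes of -1.30 ± 0.15. Mgat4c had 853 and 713 against 780 and 635 in members and 509 and 491 against 785 and 644 in CA1-like nuclei, a difference of -0.65 ± 0.08. The adjusted p of each was 0.00122 and 0.00125 (edgeR). In members the groups overlapped for Mgat4c and both Kat6a-cKO values were lower for Cpne4, while in CA1-like nuclei both Kat6a-cKO values were higher for both genes.

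Dpp10 had 627 and 684 normalised CPM in Control members and 1618 and 970 in Kat6a-cKO members, and 54.5 and 66.9 against 235 and 129 in CA1-like nuclei. Its difference was -0.59 ± 0.08 with adjusted p = 0.00562 (edgeR). Mkx, a homeobox factor gene, had 25.1 and 14.5 against 31.9 and 20.5 in members and 5.96 and 4.83 against 24.0 and 31.6 in CA1-like nuclei, a difference of -1.87 ± 0.29 with adjusted p = 0.0144. In CA1-like nuclei Mkx rose by 2.37 ± 0.17 with adjusted p = 0.00399.

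These differences moved with the nuclei compared. With the second cluster left out of the CA1-like nuclei, the difference of Dpp10 in members against CA1 was -0.09 (edgeR adjusted p = 0.995), while that of Cpne4 in members against CA1 was -1.12, that of Mgat4c in members against CA1 -0.72 and that of Mkx in members against CA1 -1.97. Those 3 still passed, and Trpm3 passed as well. For Mgat4c the difference was 0.70 with first-cluster members alone, and it passed in that direction. For Cpne4 it was 0.27 with second-cluster members alone and 0.30 with at least 4 markers.

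The differences were recomputed for members of 1 cluster at a time. With first-cluster members alone Mgat4c in members against CA1 differed by 0.70, in the opposite direction and past the threshold, and second-cluster members alone gave -0.57. Cpne4 in members against CA1 came to -1.55 in the first, no longer past the threshold, and to 0.27 in the second. Leaving the second cluster out of the CA1-like nuclei brought Dpp10 in members against CA1 to -0.09, and leaving out doublets to -0.41, neither past the threshold. With Control replicate 1 or 2 left out 23 or 27 genes passed, and with Kat6a-cKO replicate 1 or 2 left out 29 or 41. Mkx in members against CA1 was -2.12 with second-cluster members alone. Without the second cluster in the CA1-like nuclei it was -1.97, and both passed the threshold. Mkx lost its call after subtraction of free RNA and with a filter of 10 CPM, and kept its direction in each.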

How the data were processed

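The authors deposited raw counts of UMIs per barcode and gene as whole numbers, per the labels and file layout, for 2 Control and 2 Kat6a-cKO libraries, including empty droplets. Seurat 4.0.1 and the build mm10 are named per the submitters' processing notes, with no role given. The aligner, annotation, counting strand and UMI handling are not given in the sources used here. Of 55422 gene IDs, 54673 matched GENCODE M21 (GRCm38) by ID and version, and positions come from there. Genes that overlap could share reads.

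The members and gene lists were chosen with earlier results of these data known. Barcodes with at least 5000 UMIs were normalised to 10000, and 2000 variable genes, without 385 genes (rule genes, listed genes and mitochondrial genes), gave 30 principal components and 15 neighbours for Leiden clustering (leidenalg 0.10.2, resolution 1) in scanpy 1.11.5. A cluster was named when at least 50% and at least 3 markers of a class were 2-fold above other barcodes with 5 CPM added. It also needed at least 20 nuclei and no other class with more markers among its 10 leading genes. The rule's own markers were not used as a class. Clusters of over 50% doublets (Scrublet, expected rate 0.06), with a tied class, or where a class of another lineage qualified too, stayed unnamed. These last conditions were set after seeing the clusters. The second cluster met them and was counted as CA1-like in the comparisons, although its leading genes held no CA1 marker.

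Counts of members were summed per library and tested with edgeR 4.0.16 (R 4.3.3): TMM scaling, filterByExpr, quasi-likelihood test, Benjamini-Hochberg 0.05 over all genes tested. Standard errors are the log2 fold change over the root of F. Genotype effects were compared between classes as an interaction with the library as a block. Alternatives were DESeq2 1.42.0, other scaling, filters, membership, thinning, free RNA estimated from barcodes of 10 to 100 UMIs, and each library left out. The scripts were tested on simulated data.

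Genes were named by rule: those passed, or the 5 of lowest p in a direction with non-overlapping groups and at least 5 CPM; Kat6a, Rspo2 and the Neurod6 locus; per list, the 2 of lowest p and the 2 of highest mean; and for levels, the highest and lowest ratios, ranked by the lowest of 4 library ratios with 5 CPM added. Levels without "normalised" are plain CPM of summed counts. Intervals cover counting error only. 1 gene that passed in second-cluster members is counted but not reported here.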

Additional observations from a re-analysis of the deposited data

Results flagged for a closer look

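The genotype difference in members differed from that in the other CA1-like nuclei for 4 genes by edgeR's interaction test: Cpne4 by -1.30, Mgat4c by -0.65, Dpp10 by -0.59 and Mkx by -1.87 on the log2 scale (Kat6a-cKO over Control, members minus CA1-like nuclei). Mgat4c averaged 984 CPM in second-cluster and 229 CPM in first-cluster members, and Dpp10 and Mkx were also higher in the second, at 2056 against 18.3 CPM and 40.6 against 2.51 CPM. Cpne4 averaged 8.21 CPM in first-cluster, 26.5 CPM in second-cluster and 232 CPM in the 135 members outside both, which made up 29.3% and 25.5% of Control members and 20.7% and 14.6% of Kat6a-cKO members. The part of this mix in the 4 differences was not tested. The directions did not all hold within it: Mgat4c in members against CA1 came to 0.70 with first-cluster members alone, and Cpne4 in members against CA1 to 0.27 with second-cluster members alone and to 0.30 with at least 4 markers. Dpp10 in members against CA1 came to -0.09 when the second cluster was left out of the CA1-like nuclei. The direction held for Mgat4c with second-cluster members alone and for Cpne4 with first-cluster members alone. It also held for Mkx, past the threshold, with second-cluster members alone and without the second cluster in the CA1-like nuclei. Library by library the second cluster held 27.6% and 27.5% of Control members and 46.3% and 29.2% of Kat6a-cKO members.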

How the results depend on the processing

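Counts of calls moved with single libraries. With at least 4 markers 2 genes were called in members, Erbb4 and Sox2ot, both lower in Kat6a-cKO, and 0 were shared with the main result. The whole second cluster gave 2, Gm3279 and Dpp10, of which 1 was shared. The 2 genes called in members became 5 with DESeq2, 63 with no filter on low counts, 1 after free RNA was subtracted, 1 with sums thinned to 1 total, 22 in the whole first cluster, 5 in first-cluster and 5 in second-cluster members, 6 in members of CA1-like clusters, and 0 to 214 with a library left out. The interaction with CA3 gave 0 genes, and 43 with no filter, 27 with at least 4 markers, 52 for the whole first cluster, 27 and 38 for first- and second-cluster members, and 0 to 78 with a library left out. The interaction with CA1 gave 4, and 14 with no filter, 17 with at least 4 markers, 69 for the whole first cluster, 28 for second-cluster members and 23 to 41 with a library left out. The share difference of 0.405 points kept its sign, from 0.0234 points in thinned nuclei to 0.958 points for the whole second cluster (1.68 points as a share of excitatory barcodes), and from 0.0685 to 0.741 with a library left out. The cause of these shifts was not tested, and a lone library was assumed to vary like the other group.

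Replicate numbers are shared by the groups but nothing in the labels pairs them: deviations of same-numbered libraries correlated at 0.0576 over genes, and the replicate block left 2 calls.

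Of 955 values of named genes under the alternatives, 852 kept their direction and side of the threshold, 19 lost it, 43 gained it and 41 reversed. Most named genes did not pass in the main fits, so many of the 852 are genes that again did not pass. The 852 include fits with a lower and a higher minimum of UMIs per barcode, which selected the same members as the main fit. The 50 values of each of these fits could not move and say nothing about robustness. Kat6a in members ranged from -0.019 (without Control replicate 1) to 0.042 with a library left out, and came to -0.27 with 4 markers, -0.033 in the whole first cluster, -0.037 when thinned and -0.050 in first-cluster members. Rspo2 in members came to -0.028 with the replicate block, -0.050 without Control replicate 1, -0.55 without Kat6a-cKO replicate 1, 0.39 without Kat6a-cKO replicate 2, -0.10 with 4 markers, -0.18 in the whole first cluster, -0.014 when thinned and -0.067 in second-cluster members. With 4 markers Jak2 came to 0.011, Kat6b to -0.039, Kcnip4 to 0.0047, Kcnd2 to 0.036, Efna5 to -0.40, Calcrl to -0.10, and Cpne4 to 1.00 in members and 0.30 against CA1. In the whole first cluster Bmpr1b came to 0.39, Jak2 to 0.10, Gnai1 to 0.017, Hrh2 to 0.056, Rspo3 to -0.215, Kat7 to -0.035, Nrp1 to 0.049, Efna5 to -0.050, and Mgat4c to 1.54 in members and 1.16 against CA1. In the whole second cluster Jak2 came to 0.068, Rspo3 to -0.036, Nr4a2 to -0.16 and Cpne4 to 0.83. In second-cluster members Mef2c came to 0.016, and Cpne4 to 1.00 and to 0.27 against CA1. In first-cluster members Mgat4c came to 1.18 and to 0.70 against CA1, and in members of CA1-like clusters Mgat4c came to 0.12 and Cpne4 to 0.385.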
